A study of Mus musculus with 4 samples.

Results

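The transcription factor p53, its target genes and the core apoptosis machinery were followed in 4 RNA-seq libraries of mouse B16 melanoma tumors. The set held 36 of the 25239 genes in the count tables: the p53 gene Trp53, 25 genes known as p53 targets, and 10 genes of the BCL2 family, the apoptosome and the initiator caspases. Members were taken by symbol from a list that was chosen with earlier results of these data known. All 36 were found in every table and had a mean of at least 10 reads over the 4 libraries.

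B16 cells, a melanoma line from C57BL/6 mice, were placed under the skin of both flanks at 1000000 cells, and treatment began on day 7. All mice received cyclophosphamide (CTX), an alkylating drug, the day before the time of adoptive cell transfer. In the MV left tumor group, the virus MV (MYXV in the table headers) was injected into the left tumor and 5000000 TRP-1 T cells, named for the pigment-cell protein encoded by Tyrp1, were given intravenously. The TRP-1 T-MV group received 5000000 such T cells carrying MV intravenously. The MV left tumor and TRP-1 T-MV are called virus-treated tumors here. The Remote tumor was the uninjected right tumor of mice treated as in the first group, T cells included. The CTX group received buffer into the left tumor and neither T cells nor virus, and the flank sampled is not stated for it. About 100 mg of tumor was taken 12 days after transfer. The labels state n = 2, but each group has 1 library and pooling is not stated, so no comparison has a replicate check and no p-value was computed. A group given T cells alone was not analysed here.

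Total counts were 12375526 for the MV left tumor, 14802809 for TRP-1 T-MV, 21790759 for the Remote tumor and 20811605 for CTX. Levels are given as CPM, counts divided by the library total after TMM scaling and multiplied by 1000000, and 3 reads were worth 0.151 to 0.222 CPM. Ratios carry a 95% exact binomial (Clopper-Pearson) interval in square brackets, which covers counting error only. A call, higher or lower, needed a ratio of 2 or more in that direction and an interval that left out equality. Members took 0.556% of the MV left tumor's reads and 0.547% in TRP-1 T-MV, against 0.222% in the Remote tumor and 0.223% in CTX.

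As background, p53 is held low by its own target Mdm2, a ubiquitin ligase that marks it for degradation, so its activity is set mostly at the protein level and is read from its targets rather than from Trp53 mRNA. Once stabilized, as after DNA damage, it binds response elements near genes for cell cycle arrest, DNA repair and cell death. The death arm meets the BCL2 family, in which BH3-only proteins relieve anti-apoptotic members from their hold on the effectors BAX and BAK. The effectors open the mitochondrial outer membrane, and released cytochrome c assembles APAF1 and caspase-9 into the apoptosome. Death receptors such as FAS act through caspase-8 instead.

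To show where letters of the p53 response element stand near member genes, RefSeq promoter windows (build GRCm38.p6, from 250 bases before to 50 after each start) were searched. The element was taken as 2 decamers with up to 13 bases between them, C at decamer position 4 and G at position 7 always kept, and at most 2 mismatches elsewhere. It reads the same on both strands, and no other motif was searched. Of the 36 members 28 had a window, and 5 of these held a match, while 4.71% of the 27025 windows in the table did. With no mismatch allowed the match was in 1 member, Cdkn1a, and in 0.074% of all windows. The lines below show these 5 stretches, 5′ to 3′ on the gene's strand. Capitals mark the decamers of the best match and of matches that overlap or touch it, and some decamers overlap. For Cdkn1a and Ccng1 only matches with at most 1 mismatch were marked, and for Bax, Gadd45a and Sesn1 those with at most 2. The stretches lie at chr17:29090886-29090967 (plus strand) for Cdkn1a, chr11:40755442-40755501 (minus) for Ccng1, chr7:45467059-45467134 (minus) for Bax, chr6:67037418-67037488 (minus) for Gadd45a and chr10:41887233-41887310 (plus) for Sesn1.
Cdkn1a: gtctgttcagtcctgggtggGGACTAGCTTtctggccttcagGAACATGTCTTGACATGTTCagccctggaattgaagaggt
Ccng1: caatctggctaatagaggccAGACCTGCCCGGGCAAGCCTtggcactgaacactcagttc
Bax: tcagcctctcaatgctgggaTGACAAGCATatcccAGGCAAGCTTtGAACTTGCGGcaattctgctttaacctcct
Gadd45a: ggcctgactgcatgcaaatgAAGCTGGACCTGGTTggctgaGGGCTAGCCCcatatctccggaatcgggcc
Sesn1: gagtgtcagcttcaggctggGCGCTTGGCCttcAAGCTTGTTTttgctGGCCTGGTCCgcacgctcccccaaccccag
A match is a description of the letters and not a bound site. Of these 5 genes, Cdkn1a, Ccng1 and Gadd45a were called higher in both virus-treated tumors against CTX, and Bax and Sesn1 were not called.

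The first comparisons set the virus-treated tumors against the tumor that received neither virus nor T cells. In the MV left tumor 22 of 36 members were called higher than in CTX and 0 lower, a share of 61.1%, while 18.1% of the 13357 genes tested were called higher and 11.1% lower. In TRP-1 T-MV 20 members were called higher than in CTX and 0 lower, a share of 55.6%, beside 18.5% and 11.7% of all genes. These comparisons share the CTX library and are therefore not independent. Because the members were chosen with earlier results of these data known, the shares are a description and not a test. The calls lay mostly among the p53 targets: 19 of 25 in the MV left tumor and 17 of 25 in TRP-1 T-MV, against 3 of 10 BCL2 family and caspase genes in each. The median log2 ratio of the p53 targets was 1.70 in the MV left tumor and 1.71 in TRP-1 T-MV. The median of the BCL2 family and caspases was 0.14 and 0.09 in the same comparisons, and that of all genes tested was -0.05 and -0.07. For Pmaip1, Eda2r, Fas, Perp and Bcl2a1a, CTX held fewer than 10 reads. These genes met the count minimum only through the virus-treated tumors, so their calls as higher carry little weight. Among the other 31 members, 17 were called higher in the MV left tumor and 15 in TRP-1 T-MV, beside 12.6% and 13% of all genes with at least 10 reads in CTX.

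**Figure D1:**
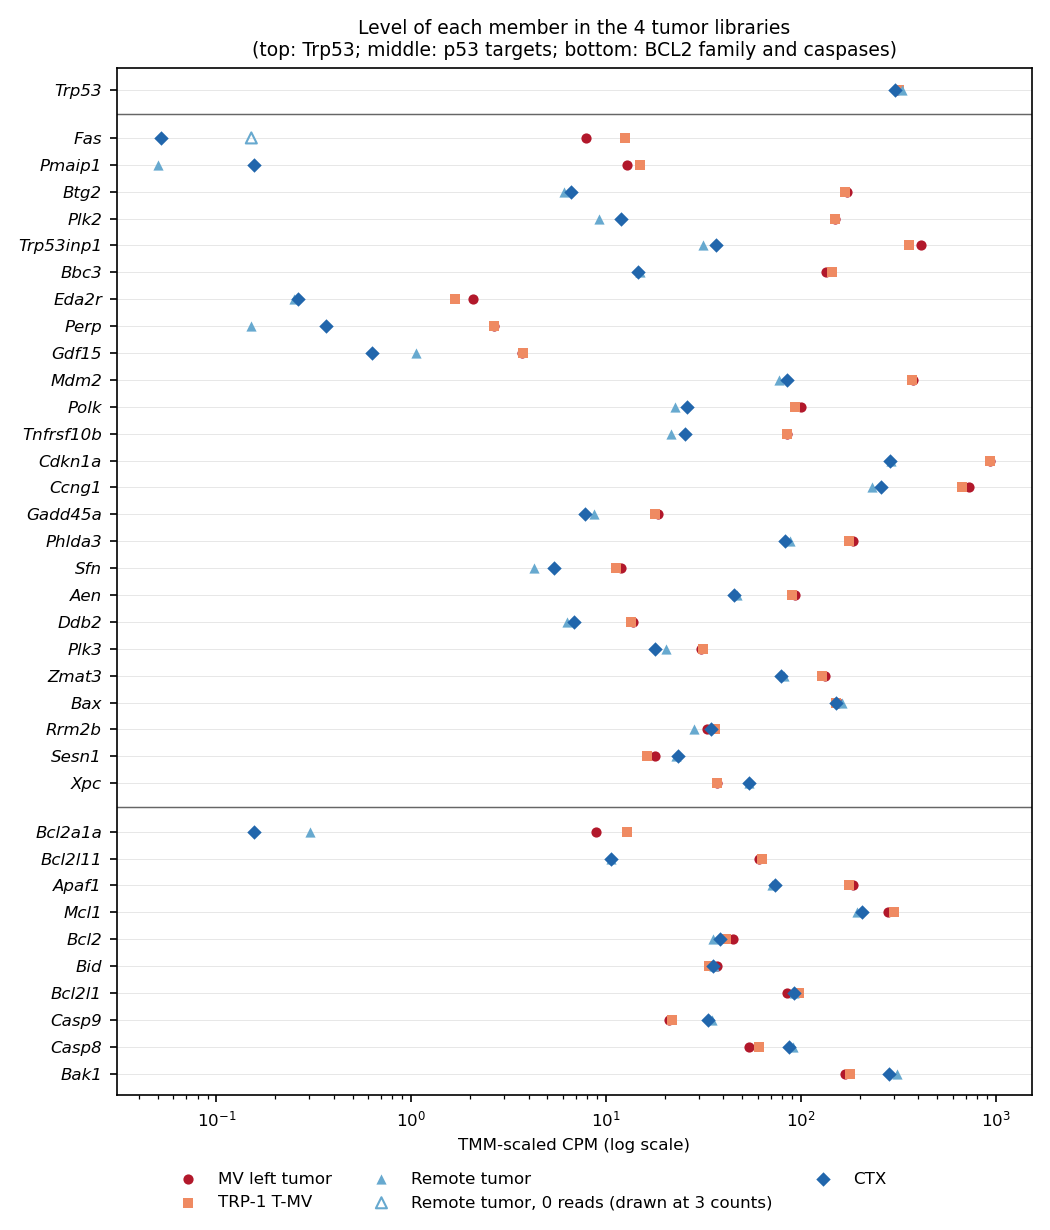
TMM-scaled CPM (log axis) of each of the 36 members in the 4 libraries, 1 point per library, with Trp53 at the top, p53 targets in the middle and BCL2 family and caspase genes at the bottom; the open triangle marks Fas in the Remote tumor, which had 0 reads and is drawn at 3 counts. For most p53 targets the MV left tumor and TRP-1 T-MV points sit together to the right of the Remote tumor and CTX points, whereas Trp53 lies between 304.2 and 329.1 CPM in all 4.

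Levels of cell type markers differed along the same split of the tumors. The summed level of 8 melanocyte markers was 6030 CPM in the MV left tumor and 5642 in TRP-1 T-MV, against 26080 in the Remote tumor and 25630 in CTX, and all 8 were called lower in the MV left tumor than in CTX. For 8 T cell markers the sums were 230.2 and 227.7 CPM in the MV left tumor and TRP-1 T-MV, against 8.89 and 8.97 in the Remote tumor and CTX. The 8 myeloid markers summed to 1001 and 1483 CPM, against 81.4 and 62.0, in the same order. The part of these markers in the results on members was not tested, and in bulk tissue fewer cells of a type and less RNA per cell cannot be told apart. The symbols Rn45s (pre-ribosomal RNA), Rpph1 (the RNA of RNase P) and Lars2 together made up 1.64% of the counts of the MV left tumor and 1.62% of TRP-1 T-MV, against 0.164% of the Remote tumor and 0.141% of CTX.

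Trp53 itself (chr11:69580359-69591873, plus strand, mm10) did not follow its targets. It had 309.5 CPM in the MV left tumor and 320.1 CPM in TRP-1 T-MV, against 329.1 CPM in the Remote tumor and 304.2 CPM in CTX. The 4 values overlapped between the tumors with and without virus, and no comparison called it. The log2 ratio was 0.03 [-0.03, 0.08] for the MV left tumor against CTX and 0.07 [0.02, 0.13] for TRP-1 T-MV against CTX.

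Mdm2 (chr10:117688875-117710758, minus strand), the feedback regulator, had 375.8 CPM in the MV left tumor and 372.7 CPM in TRP-1 T-MV, against 77.2 CPM in the Remote tumor and 84.3 CPM in CTX. The virus-treated tumors were thus both well above the others, by 4.46-fold for the MV left tumor over CTX (log2 2.16 [2.07, 2.24]) and by 4.42-fold for TRP-1 T-MV over CTX (log2 2.14 [2.06, 2.22]). Expressed within each library, Mdm2 gave 121 reads per 100 Trp53 reads for the MV left tumor and 116 in TRP-1 T-MV, against 23.5 in the Remote tumor and 27.7 in CTX. This within-library ratio does not depend on how the libraries are scaled to each other. Ccng1, which encodes cyclin G1 and is itself linked to MDM2 regulation, had 725.3 CPM in the MV left tumor and 667 in TRP-1 T-MV, against 232.4 in the Remote tumor and 257.3 in CTX. Its log2 ratio over CTX was 1.5 [1.45, 1.54] in the MV left tumor and 1.37 [1.33, 1.42] in TRP-1 T-MV.

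Among the arrest genes, Cdkn1a (chr17:29090976-29100727, plus strand), which encodes the cyclin-dependent kinase inhibitor p21, had the most reads of all members in the virus-treated tumors. It reached 928.6 CPM in the MV left tumor and 937.6 CPM in TRP-1 T-MV, against 290.3 CPM in the Remote tumor and 286.6 CPM in CTX. The virus-treated tumors did not overlap with the others, and the log2 ratio over CTX was 1.70 [1.65, 1.74] in the MV left tumor and 1.71 [1.67, 1.75] in TRP-1 T-MV. Per kb of exon, Cdkn1a was the highest of the 36 members in the MV left tumor at 341.7 CPM per kb and in TRP-1 T-MV at 345. In the Remote tumor and CTX it ranked 4, at 106.8 and 105.4 CPM per kb, and Bax ranked 1, at 188.4 and 174.3.

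Btg2, an antiproliferative member of the BTG/TOB family, stood further apart. It had 172.1 CPM in the MV left tumor and 168.1 CPM in TRP-1 T-MV, against 6.08 CPM in the Remote tumor and 6.62 CPM in CTX. The log2 ratio over CTX was 4.70 [4.44, 4.97] in the MV left tumor, a 26-fold difference on 2326 and 127 reads, and 4.67 [4.41, 4.93] in TRP-1 T-MV. Plk2, a polo-like kinase of the stress response, had 148.8 CPM in the MV left tumor and 149.9 CPM in TRP-1 T-MV, against 9.19 CPM in the Remote tumor and 11.9 CPM in CTX. The ratio over CTX was 12.5-fold in the MV left tumor and 12.6-fold in TRP-1 T-MV. Its relative Plk3 was not called, with log2 ratios over CTX of 0.78 [0.57, 0.99] in the MV left tumor and 0.82 [0.62, 1.02] in TRP-1 T-MV.

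The checkpoint genes Gadd45a and Sfn, the second of which encodes 14-3-3 sigma, were higher by smaller steps. Gadd45a had 18.5 CPM in the MV left tumor and 17.8 in TRP-1 T-MV, against 8.69 in the Remote tumor and 7.77 in CTX, with log2 ratios over CTX of 1.25 [0.95, 1.55] and 1.19 [0.90, 1.49] for the virus-treated tumors in that order. Sfn had 11.9 CPM in the MV left tumor and 11.2 in TRP-1 T-MV, against 4.27 in the Remote tumor and 5.37 in CTX. Its log2 ratios over CTX were 1.15 [0.78, 1.52] and 1.07 [0.71, 1.43]. Sfn is also an epithelial gene, and the 7 keratinocyte markers summed to 0.888 CPM in the MV left tumor and 1.30 in TRP-1 T-MV, against 0.151 in the Remote tumor and 0.0522 in CTX, with 2, 2, 5 and 6 of the 7 at 0 reads in that order.

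DNA repair targets were split. Polk, a translesion DNA polymerase, had 99.5 CPM in the MV left tumor and 93.1 in TRP-1 T-MV, against 22.6 in the Remote tumor and 25.9 in CTX, and its log2 ratios over CTX were 1.94 [1.79, 2.09] and 1.84 [1.70, 1.99]. Ddb2, which recognizes ultraviolet damage for nucleotide excision repair, lay at the threshold. It had 13.7 CPM in the MV left tumor and 13.5 in TRP-1 T-MV, against 6.28 in the Remote tumor and 6.83 in CTX, so the ratio over CTX was 2.00-fold and called in the MV left tumor and 1.97-fold and not called in TRP-1 T-MV. Xpc, which acts beside it in damage recognition, ran the other way without being called, at 37.1 CPM in both virus-treated tumors, against 54.2 in both the Remote tumor and CTX. The log2 ratio of Xpc over CTX was -0.55 [-0.70, -0.39] in the MV left tumor and -0.55 [-0.69, -0.40] in TRP-1 T-MV. Rrm2b, the p53-inducible ribonucleotide reductase subunit, overlapped between the tumors, with log2 ratios over CTX of -0.06 [-0.23, 0.12] and 0.07 [-0.09, 0.24].

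Stress and survival regulators were led by Trp53inp1, a p53-induced nuclear protein that also takes part in autophagy. It had 413.9 CPM in the MV left tumor and 358.4 CPM in TRP-1 T-MV, against 31.4 CPM in the Remote tumor and 36.6 CPM in CTX. The groups did not overlap, and the ratio over CTX was 11.3-fold in the MV left tumor and 9.81-fold in TRP-1 T-MV. Phlda3, an inhibitor of AKT, was called higher at log2 ratios over CTX of 1.16 [1.07, 1.26] and 1.10 [1.01, 1.19]. Aen, an apoptosis-enhancing nuclease, had 93.5 CPM in the MV left tumor and 90.0 in TRP-1 T-MV, against 47.0 in the Remote tumor and 45.6 in CTX. Its ratio over CTX crossed the threshold in the MV left tumor at 2.05-fold and missed it in TRP-1 T-MV at 1.98-fold. Gdf15, a secreted stress cytokine, was scarce, with 50 reads from the MV left tumor and 60 from TRP-1 T-MV, against 21 in the Remote tumor and 12 in CTX, and was called at log2 2.56 [1.63, 3.61] and 2.57 [1.66, 3.60] over CTX. Zmat3, an RNA-binding zinc finger protein, was not called, at 0.75 [0.65, 0.85] and 0.69 [0.60, 0.79] on the log2 scale over CTX. Sesn1, a sestrin that restrains mTORC1 signaling, had 17.8 CPM in the MV left tumor and 16.2 in TRP-1 T-MV, against 22.7 in the Remote tumor and 23.5 in CTX, and was not called.

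The death receptors among the targets were called higher in both virus-treated tumors. Fas and Eda2r met the count minimum only through these tumors, so their calls as higher carry little weight. Fas had 107 reads from the MV left tumor and 201 from TRP-1 T-MV, against 0 in the Remote tumor and 1 read in CTX. The log2 ratio over CTX was 7.25 [4.74, 12.56] in the MV left tumor and 7.90 [5.41, 13.21] in TRP-1 T-MV, the widest intervals in the set because CTX held 1 read. Lymphoid and myeloid cells also express Fas, and their markers differed between the same libraries as given above. Tnfrsf10b, the mouse TRAIL receptor, had 85.1 CPM in the MV left tumor and 84.8 in TRP-1 T-MV, against 21.6 in the Remote tumor and 25.4 in CTX. Its log2 ratio over CTX was 1.74 in both, with intervals [1.59, 1.90] and [1.59, 1.89]. Eda2r, a receptor for the A2 form of ectodysplasin, had 28 reads from the MV left tumor and 27 from TRP-1 T-MV, against 5 in the Remote tumor and 5 in CTX, at log2 ratios over CTX of 2.99 [1.60, 4.72] and 2.68 [1.29, 4.42].

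The targets that act at the mitochondrion diverged. Bbc3 (chr7:16308393-16318205, plus strand), which encodes the BH3-only protein PUMA, had 134.8 CPM in the MV left tumor and 143.6 CPM in TRP-1 T-MV, against 14.9 CPM in the Remote tumor and 14.5 CPM in CTX. The ratio over CTX was 9.30-fold in the MV left tumor (log2 3.22 [3.03, 3.4]) and 9.91-fold in TRP-1 T-MV (log2 3.31 [3.13, 3.49]). Pmaip1, which encodes NOXA, another BH3-only protein, had 173 reads from the MV left tumor and 240 from TRP-1 T-MV, against 1 in the Remote tumor and 3 in CTX. Its log2 ratio over CTX was 6.35 [4.78, 8.65] in the MV left tumor and 6.57 [5.01, 8.86] in TRP-1 T-MV. Bax, by contrast, had 154.1 CPM in the MV left tumor and 150.5 CPM in TRP-1 T-MV, against 163.3 CPM in the Remote tumor and 151.1 CPM in CTX. Bax values overlapped between the tumors, and the log2 ratio over CTX was 0.03 [-0.05, 0.11] and -0.01 [-0.08, 0.07]. Perp, a membrane protein of desmosomes and of p53-induced death, had 36 reads from the MV left tumor and 43 from TRP-1 T-MV, against 3 in the Remote tumor and 7 in CTX, and its log2 ratio over CTX was 2.87 in both, with intervals [1.68, 4.28] and [1.71, 4.27].

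**Figure D2:**
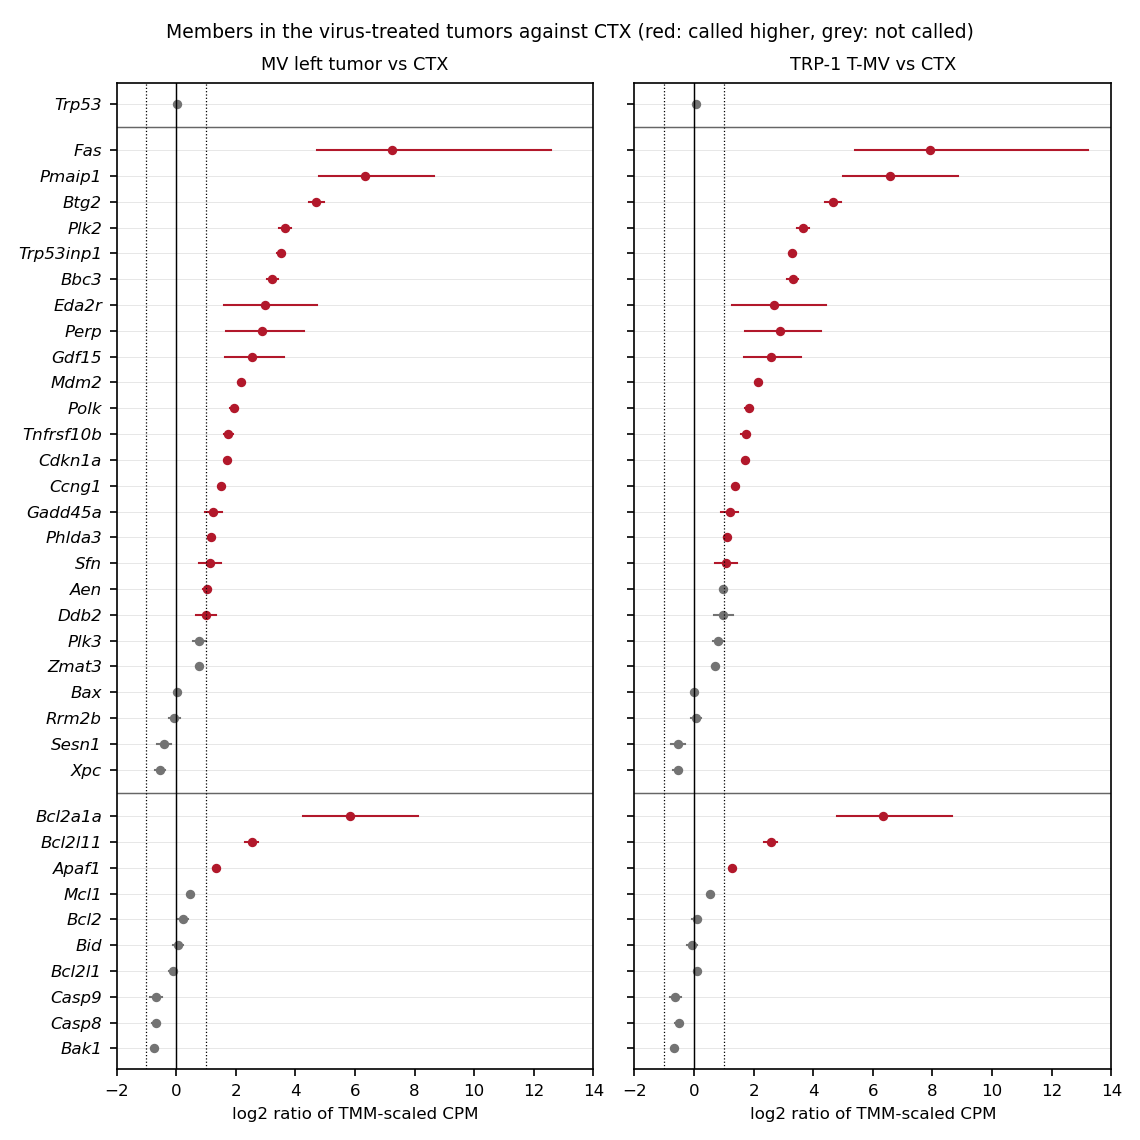
Log2 ratio of TMM-scaled CPM of each member in the MV left tumor over CTX (left) and in TRP-1 T-MV over CTX (right), with 95% exact binomial intervals for counting error as horizontal lines, dotted lines at a ratio of 2 in either direction, and red for members called higher. The p53 targets run from Fas at 7.25 and 7.90 down to Xpc at -0.55 in both panels, and of the 10 genes in the bottom block Bcl2a1a, Bcl2l11 and Apaf1 are red in each.

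**Figure D3:**
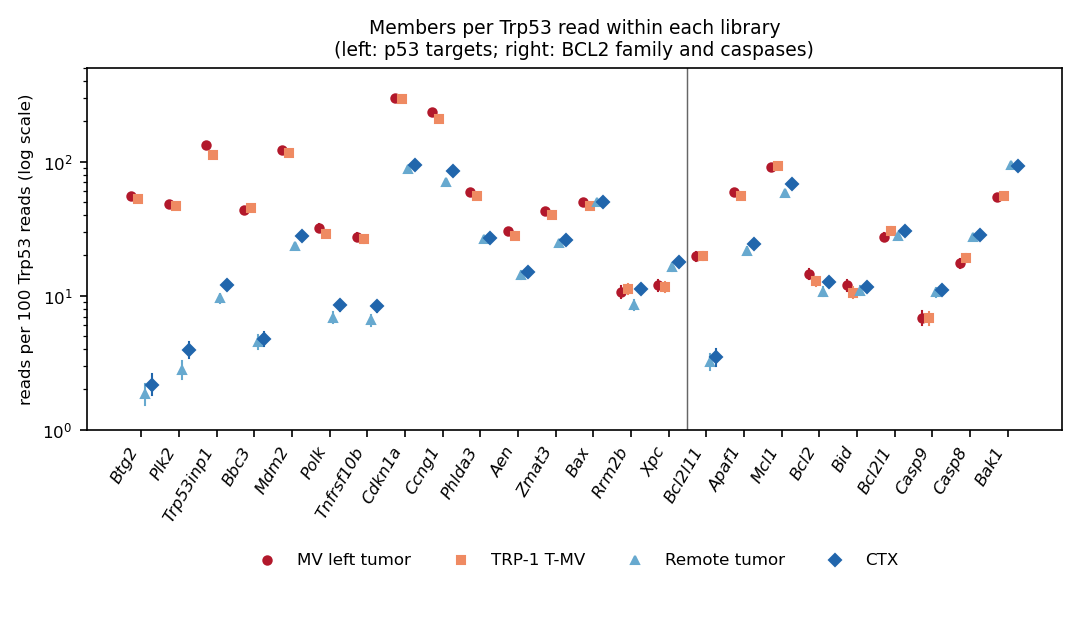
Reads of each member per 100 Trp53 reads within the same library (log axis) for members that reached at least 10 such reads in any library, with exact 95% intervals for counting error as vertical lines. Cdkn1a lies at 300 and 292.9 in the MV left tumor and TRP-1 T-MV, against 88.2 and 94.2 in the Remote tumor and CTX, while Bax lies between 47.0 and 49.8 in all 4.

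In the BCL2 family the BH3-only gene Bcl2l11, which encodes BIM, was called higher. It had 61.0 CPM in the MV left tumor and 63.2 CPM in TRP-1 T-MV, against 10.6 CPM in both the Remote tumor and CTX. The log2 ratio over CTX was 2.53 [2.30, 2.75] in the MV left tumor and 2.58 [2.36, 2.80] in TRP-1 T-MV. Bid, the BH3-only protein that links caspase-8 to mitochondria, overlapped between the tumors at 37.2 and 33.8 CPM in the MV left tumor and TRP-1 T-MV, against 35.8 and 35.4 in the Remote tumor and CTX.

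Of the anti-apoptotic genes Bcl2a1a alone was called with TMM scaling, and Mcl1 was also called higher in TRP-1 T-MV when the housekeeping list set the scale. Bcl2a1a had 120 reads from the MV left tumor and 205 from TRP-1 T-MV, against 6 in the Remote tumor and 3 in CTX, and its log2 ratio over CTX was 5.83 [4.25, 8.12] and 6.35 [4.78, 8.64]. Bcl2a1a is one of a cluster of near-identical mouse genes, so its reads are uncertain. To show how little separates them, the first 60 coding bases of 3 copies (GENCODE M21, mm10, chromosome 9) are given with the 6 positions that differ in capitals.
Bcl2a1a: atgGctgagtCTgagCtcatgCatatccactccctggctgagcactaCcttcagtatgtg
Bcl2a1b: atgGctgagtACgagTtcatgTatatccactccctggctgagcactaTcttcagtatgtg
Bcl2a1d: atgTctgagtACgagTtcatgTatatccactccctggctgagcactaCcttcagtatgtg
Over the 519 coding bases Bcl2a1a and Bcl2a1b differ at 11 positions, Bcl2a1a and Bcl2a1d at 7, and Bcl2a1b and Bcl2a1d at 6. Of all stretches of 50 coding bases, 42.8% are identical between Bcl2a1a and Bcl2a1b and 74.0% between Bcl2a1a and Bcl2a1d, and how reads with several matches were counted is not given in the sources used here. Summed over the 3 copies, 761 reads were counted in the MV left tumor and 1258 in TRP-1 T-MV, against 37 in the Remote tumor and 38 in CTX. The log2 ratio of the sum over CTX was 4.83 [4.36, 5.34] in the MV left tumor and 5.30 [4.84, 5.81] in TRP-1 T-MV. This family is known from blood cells, and the 5 neutrophil markers summed to 341.1 CPM in the MV left tumor and 534 in TRP-1 T-MV, against 1.91 in the Remote tumor and 1.20 in CTX. Most of the sum in the virus-treated tumors was Lcn2, at 185.1 and 284.7 CPM, and Mmp8, at 142.7 and 228.9. The other markers were low there: S100a8 at 3.55 and 4.66 CPM, S100a9 at 3.77 and 8.69, and Csf3r at 5.85 and 7.02. The part of these markers in the Bcl2a1 reads was not tested.

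The other anti-apoptotic genes were not called. Mcl1 had 281 CPM in the MV left tumor and 299 in TRP-1 T-MV, against 193.6 in the Remote tumor and 205.9 in CTX, a log2 ratio over CTX of 0.45 [0.38, 0.51] and 0.54 [0.48, 0.60]. Bcl2 was at 0.22 [0.06, 0.38] and 0.09 [-0.06, 0.25], and Bcl2l1, which encodes BCL-XL, at -0.12 [-0.23, -0.02] and 0.09 [-0.01, 0.18], on the same scale. The sign for Bcl2l1 in the MV left tumor depended on the scaling, at 0.12 with total counts and 0.39 with the housekeeping list. The effector gene Bak1 had 167.5 CPM in the MV left tumor and 177.9 CPM in TRP-1 T-MV, against 309.7 CPM in the Remote tumor and 283.9 CPM in CTX. Bak1 values did not overlap, and the log2 ratio over CTX was -0.76 [-0.83, -0.69] and -0.67 [-0.74, -0.61], short of the threshold.

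Per kb of exon, the 4 BH3-only genes Bbc3, Pmaip1, Bcl2l11 and Bid summed to 104.8 CPM per kb in the MV left tumor and 109.2 in TRP-1 T-MV, against 26.1 in the Remote tumor and 25.7 in CTX. The 4 anti-apoptotic genes summed to 119.7 and 132.7, against 84.5 and 88.4, in that order of libraries. The ratio of the BH3-only sum to the anti-apoptotic sum was therefore 0.875 in the MV left tumor and 0.823 in TRP-1 T-MV, against 0.309 in the Remote tumor and 0.291 in CTX. For the effectors Bax and Bak1 the ratio to the anti-apoptotic sum ran the other way, at 2.07 in the MV left tumor and 1.87 in TRP-1 T-MV, against 3.76 in the Remote tumor and 3.32 in CTX. Both sums held member genes only, so Bcl2a1b and Bcl2a1d were left out of the anti-apoptotic sum. Bcl2a1b had 29.3 CPM in the MV left tumor and 41.9 in TRP-1 T-MV, against 1.005 in the Remote tumor and 1.147 in CTX. Bcl2a1d had 18.1 and 23.5, against 0.553 and 0.678. Adding these genes would raise the anti-apoptotic sum mostly in the virus-treated tumors and lower both ratios there. All of these are ratios of mRNA levels within a library and say nothing of protein.

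Downstream, Apaf1, the scaffold of the apoptosome, was called higher, and the caspases among the members were not called. Apaf1 had 185.2 CPM in the MV left tumor and 176.8 CPM in TRP-1 T-MV, against 71.4 CPM in the Remote tumor and 73.5 CPM in CTX, at log2 ratios over CTX of 1.33 [1.24, 1.43] and 1.27 [1.17, 1.36]. Casp9, the initiator it activates, had 21.1 CPM in the MV left tumor and 21.7 CPM in TRP-1 T-MV, against 34.9 CPM in the Remote tumor and 33.5 CPM in CTX. Casp8, the initiator of the death receptor route, had 53.9 CPM in the MV left tumor and 60.8 CPM in TRP-1 T-MV, against 90.8 CPM in the Remote tumor and 86.9 CPM in CTX. Neither caspase overlapped between tumors with and without virus, and their log2 ratios over CTX lay between -0.69 and -0.52. Over the whole set, both virus-treated tumors were above both others for 26 members and below both for 5 (Sesn1, Xpc, Bak1, Casp8 and Casp9), while 41.9% of all genes tested were above and 46.7% below in this way.

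**Figure D4:**
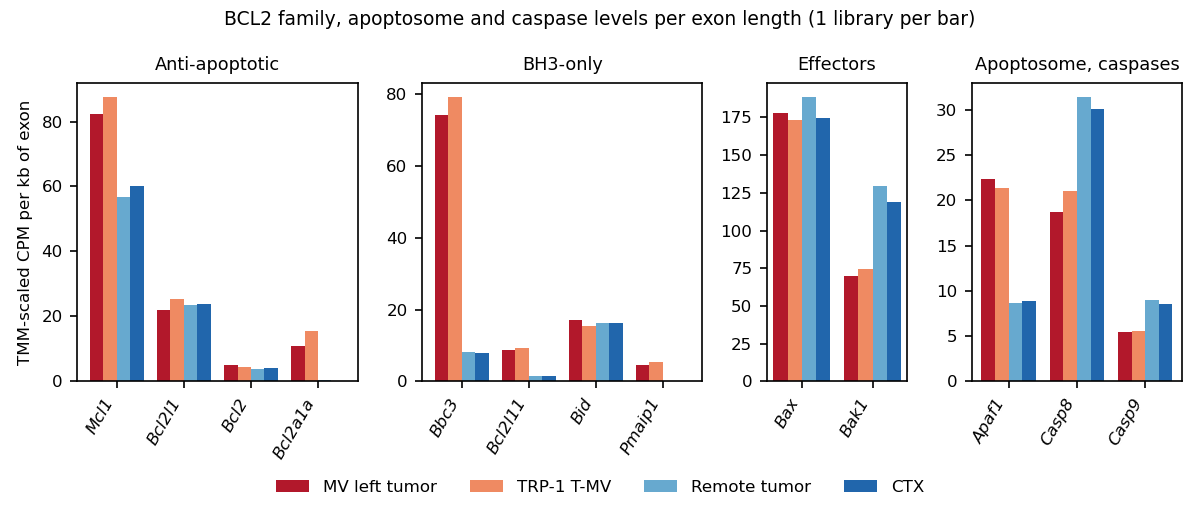
TMM-scaled CPM per kb of exon for BCL2 family, apoptosome and caspase genes, 1 bar per library and a separate linear axis from 0 for each panel; bars carry no error because each is 1 library. Bbc3 and Apaf1 bars are taller in the MV left tumor and TRP-1 T-MV, the Bak1, Casp8 and Casp9 bars are taller in the Remote tumor and CTX, and the Bax bars lie between 173.6 and 188.4.

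The Remote tumor was then set against CTX, which asks whether the uninjected tumor of mice given T cells and a virus injection elsewhere differed from one given neither. No member was called in either direction among the 34 with a ratio, beside 0.468% of all genes called higher and 0.253% lower. Fas and Pmaip1 had 3 reads or fewer in both tumors and no ratio. The median log2 ratio was -0.05 for the p53 targets and 0.01 for the BCL2 family and caspases, against -0.00 for all genes tested. Small differences beyond counting error were present. The interval lay below equality for 8 members and above it for 3, beside 12.3% and 12.4% of all genes. The 8 were Mcl1 at -0.09 and the p53 targets Mdm2 at -0.13, Ccng1 at -0.15, Polk at -0.20, Trp53inp1 at -0.22, Tnfrsf10b at -0.24, Rrm2b at -0.28 and Plk2 at -0.38 [-0.67, -0.09] on the log2 scale. The 3 were Trp53 and Bax at 0.11 each and Bak1 at 0.13. With 1 library per group, differences of this size cannot be set against the spread between tumors. Cdkn1a was at 0.02 [-0.03, 0.07] and Bbc3 at 0.04 [-0.20, 0.28].

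TRP-1 T-MV set beside the MV left tumor compared the routes by which virus was given, on T cells in the blood or into the tumor. No member was called, beside 0.562% of all genes called higher and 0.217% lower. The median log2 ratio was -0.02 for the p53 targets and 0.07 for the BCL2 family and caspases, against -0.01 for all genes tested. The interval lay above equality for 7 members and below it for 2, beside 11% and 11.1% of all genes. Of the 10 BCL2 family and caspase genes 5 were above: Bcl2a1a at 0.52 [0.19, 0.86], Bcl2l1 at 0.21 [0.10, 0.32], Casp8 at 0.17 [0.03, 0.31], and Mcl1 and Bak1 at 0.09 each. The p53 targets above equality were Fas, at 0.66 [0.31, 1.01], and Bbc3, at 0.09. Those below were Ccng1 at -0.12 [-0.16, -0.08] and Trp53inp1 at -0.21 [-0.26, -0.15]. The 8 myeloid markers had a median log2 ratio of 0.57 in the same comparison, and the 8 T cell markers of -0.03; their part in the Fas and Bcl2a1a values was not tested.

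**Figure D5:**
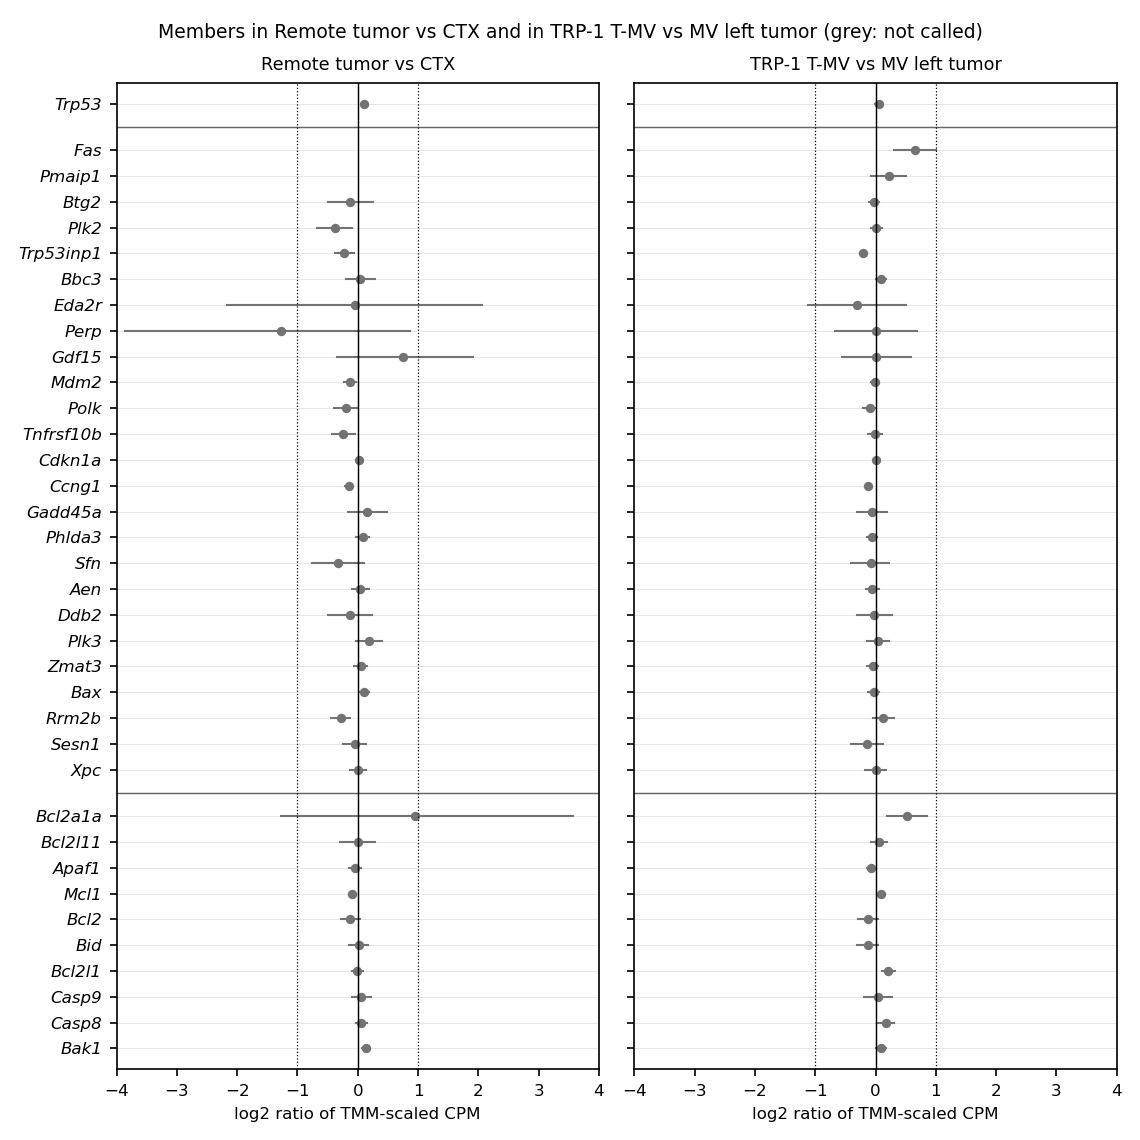
Log2 ratio of TMM-scaled CPM of each member in the Remote tumor over CTX (left) and in TRP-1 T-MV over the MV left tumor (right), with 95% exact binomial intervals for counting error as horizontal lines and dotted lines at a ratio of 2 in either direction; Fas and Pmaip1 have no ratio on the left. No member is called in either panel, and the wide intervals belong to genes with few reads such as Eda2r, Perp, Gdf15 and Bcl2a1a.

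The MV left tumor against the Remote tumor set the injected and uninjected flanks of the same treatment group side by side. Both came from mice given T cells, but the 8 T cell markers summed to 230.2 CPM in the MV left tumor and 8.89 in the Remote tumor. Of the 36 members 21 were called higher and 0 lower, beside 18.6% and 11.7% of all genes. Fas, Pmaip1, Perp, Eda2r and Bcl2a1a had 0, 1, 3, 5 and 6 reads in the Remote tumor. These genes met the count minimum only through the virus-treated tumors, so their calls as higher carry little weight. The calls took in 18 of 25 p53 targets, with a median log2 ratio of 1.68, and 3 of 10 BCL2 family and caspase genes, with a median of 0.20, against -0.04 for all genes tested. Mdm2 was 4.87-fold higher (log2 2.28 [2.20, 2.37]), Cdkn1a 3.20-fold (log2 1.68 [1.63, 1.72]) and Bbc3 9.06-fold (log2 3.18 [3.00, 3.36]) in the MV left tumor. Plk2 was 16.2-fold and Trp53inp1 13.2-fold higher. Fas, with 0 reads in the Remote tumor, was 52.5-fold higher when that library was set to a floor of 3 counts. Its interval began at log2 5.39 and had no upper end. Aen, at 1.99-fold, was just short of a call, and Bak1 had the lowest ratio of the set at log2 -0.89 [-0.96, -0.82], not called. This comparison shares the MV left tumor library with the one against CTX.

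Other genes of the p53 pathway were called in either direction. Of 40 listed genes 38 passed the count minimum, and 11 (28.9%) were called higher and 3 (7.89%) lower in the MV left tumor than in CTX, beside 18.1% and 11.1% of all genes. The numbers were the same in TRP-1 T-MV, beside 18.5% and 11.7% of all genes, and 0 were called in the Remote tumor, beside 0.468% and 0.253%. Their median log2 ratio over CTX was 0.42 in the MV left tumor and 0.40 in TRP-1 T-MV. The highest in the MV left tumor were Thbs1, the matrix protein thrombospondin 1, at 5.85 [5.68, 6.04], Cdkn2a, the locus of p16 and ARF, Dram1, an autophagy regulator, at 4.40 [3.37, 5.64], and Epha2, a receptor kinase, at 4.00 [3.72, 4.29]. Thbs1 had 790.3 CPM in the MV left tumor and 1224 in TRP-1 T-MV, against 13.7 in CTX. Cdkn2a, which B16 cells are reported to have lost, had 74 reads from the MV left tumor and 96 from TRP-1 T-MV, against 1 in the Remote tumor and 0 in CTX. It met the count minimum only through the virus-treated tumors, so its call as higher carries little weight. Dram1 had 119 reads from the MV left tumor and 205 from TRP-1 T-MV, against 19 in the Remote tumor and 8 in CTX. The lowest were Steap3, a metalloreductase, at -1.85 [-2.0, -1.69], Chek2, a checkpoint kinase upstream of p53, at -1.08 [-1.30, -0.87], and Ephx1, an epoxide hydrolase, at -1.04 [-1.14, -0.94].

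Other apoptosis genes were likewise called in either direction. Of 33 listed genes 29 passed the minimum. In the MV left tumor 9 of these (31%) were called higher than in CTX and 4 (13.8%) lower. Of all genes, 18.1% were called higher and 11.1% lower. The numbers of listed genes were the same in TRP-1 T-MV, beside 18.5% and 11.7% of all genes. In the Remote tumor 0 were called, beside 0.468% and 0.253% of all genes. The share called lower was near that of all genes in both virus-treated tumors. Beside Bcl2a1d and Bcl2a1b, described above, the highest in the MV left tumor were Birc3, an inhibitor of apoptosis protein, at log2 3.36 [2.93, 3.81], and Tnfsf10, the ligand of the Tnfrsf10b receptor, at 3.31 [2.16, 4.70]. Tnfsf10 had 49 reads from the MV left tumor and 66 from TRP-1 T-MV, against 6 in the Remote tumor and 7 in CTX. It met the count minimum only through the virus-treated tumors, so its call as higher carries little weight. The lowest were Bok, a BAX relative, at -1.43 [-2.49, -0.49], Birc5, the mitotic protein survivin, at -1.13 [-1.22, -1.03], Fadd, the adaptor between death receptors and caspase-8, at -1.08 [-1.26, -0.91], and Cycs, cytochrome c, at -1.02 [-1.10, -0.93].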

How the data were processed

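RNA-seq of tumor tissue was analysed from 4 tables, 1 per group, in which the authors deposited whole-number counts, not normalized, under 25239 gene symbols. Per the submitters' processing notes, HISAT2, featureCounts and build mm10 were used; for versions, strand setting, annotation and reads with several matches, nothing is stated. Reads of a gene and of an overlapping gene on the opposite strand can therefore not be told apart, which touches Cdkn1a, Plk3, Rrm2b, Ddb2, Gadd45a, Bcl2, Bak1 and Casp9. Bax overlaps Gm45808 on its own strand.

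Counts were scaled with TMM factors (edgeR 4.0.16, R 4.3.3) to CPM, and 13357 genes with a mean count of at least 10 were compared. Intervals are exact conditional binomial (Clopper-Pearson) at 95%, from Python 3.11.15 with pandas 2.3.3, numpy 2.4.6 and scipy 1.17.1; figures used matplotlib 3.10.9. A library at 0 reads was set to 3 counts, and a gene at 3 reads or fewer in both got no ratio. Exon lengths and positions came from GENCODE M21. The calling step was tested on data simulated with counting error only, which could not show how calls hold up against the spread between tumors.

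The members and the further lists were chosen with earlier results of these data known. All members are accounted for; of the further lists, up to 4 highest and 4 lowest called genes in the MV left tumor against CTX were named. Alternatives were upper-quartile factors, DESeq2 1.42.0 size factors, a 12-gene housekeeping list, total counts, other count minimums and folds, thinning to the smallest library, and another class for Bax, Bbc3 and Pmaip1.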

Additional observations from a re-analysis of the deposited data

How the results depend on the processing

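The numbers of members called kept within 1.5 times of the reported ones under the 4 other scalings, with no count minimum, with a mean of at least 50 reads, and after thinning to the smallest library. The same held with only members of at least 10 reads in CTX, an alternative chosen after seeing the data. The required fold mattered. At a fold of at least 4, 12 members were called higher in each of the MV left tumor against CTX, TRP-1 T-MV against CTX and the MV left tumor against the Remote tumor, beside 10.9%, 11.2% and 10.7% of all genes. Each time the 12 included Fas, Pmaip1, Bcl2a1a, Eda2r and Perp, which met the count minimum only through the virus-treated tumors. At a fold of at least 1.5, 3 members were called lower in the MV left tumor against CTX and 3 against the Remote tumor (Bak1, Casp8 and Casp9), 2 in TRP-1 T-MV against CTX (Bak1 and Casp9), and 1, Fas, was called higher in TRP-1 T-MV over the MV left tumor. Of all genes, 24.1%, 24.6% and 24.8% were called lower at that fold in the first 3 of these comparisons, in that order, and 2.44% were called higher in the one with Fas. Total counts added 0.24 and the housekeeping list 0.51 to every log2 ratio of the MV left tumor over CTX, and 0.24 and 0.50 for TRP-1 T-MV. Xpc, at -0.55 over CTX in both virus-treated tumors with TMM scaling, thus came near equality with the housekeeping list. The same held for Casp8 in TRP-1 T-MV, at -0.52 with TMM scaling. With the housekeeping list, Zmat3 and Plk3 were also called higher in both comparisons of virus-treated tumors with CTX, Mcl1 in TRP-1 T-MV against CTX, and Mcl1, Zmat3, Plk3 and Aen in the MV left tumor against the Remote tumor. Bcl2l1 in the MV left tumor over CTX then stood at 0.39 [0.28, 0.49], above equality. Against the Remote tumor, Trp53 and Bax (0.46 each) and Bcl2l1 (0.43) did too. Sesn1 changed sign, to 0.12 [-0.12, 0.34] over CTX and 0.20 [-0.03, 0.43] over the Remote tumor, with intervals that held equality. Against the Remote tumor, Trp53, Bax and Bcl2l1 were also above equality with total counts (0.17, 0.17 and 0.14). Of the 12 housekeeping genes, 4 were themselves called lower with TMM scaling against CTX. Aen and Ddb2 in TRP-1 T-MV were called under each of the 4 other scalings. No paired analysis was possible because there was 1 library per group. Depth limits Fas, Pmaip1, Bcl2a1a, Eda2r and Perp, which had fewer than 10 reads in CTX, and intervals leave out the spread between tumors.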
